A study of Mus musculus with 4 samples.

Results

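The platelet-derived growth factor (PDGF) family was followed in mature adipocytes of 2 mouse fat depots through its 4 ligand genes, Pdgfa, Pdgfb, Pdgfc and Pdgfd, and 3 receptor or receptor-like genes, Pdgfra, Pdgfrb and Pdgfrl. The members were chosen by gene symbol, with earlier results of these data known. All 7 were among the 18781 genes of the table, and all 7 passed the expression filter (at least 1 CPM in at least 2 libraries), as did 12797 genes in total. Adipocytes were purified from C57BL/6 mice at postnatal day 30, with 2 libraries of dermal adipocytes, taken from skin, and 2 libraries of inguinal adipocytes, from the subcutaneous fat of the groin. No group carried a transgene, deletion or treatment according to the labels. Per the labels' protocols, cells were freed with collagenase IV and dispase II and collected by flotation, and libraries were made from total RNA with a stranded kit. Whether replicates were separate animals is not labelled, and p-values therefore measure only how these libraries vary, which may be technical.

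PDGF ligands are secreted dimers that drive the growth and migration of mesenchymal cells. PDGF-A and PDGF-B are released in active form after convertase processing inside the cell, whereas PDGF-C and PDGF-D carry an N-terminal CUB domain that extracellular proteases must remove. The receptors are tyrosine kinases: PDGF receptor alpha binds the A, B and C chains and marks fibroblasts and adipocyte progenitors, and PDGF receptor beta binds the B and D chains and marks pericytes and other mural cells. In fat, PDGF-B from endothelial cells recruits pericytes, and in skin, PDGF-A signals to dermal progenitors and to the hair follicle niche.

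Among the members, 4 matched a promoter entry in RefSeq (GRCm38.p6). The 250 bases before the start site are shown for Pdgfc and Pdgfd, the latent CUB-domain ligands. These are the most closely related ligands whose estimates differed in direction between the depots, although that of Pdgfc did not pass the test below. Each is read 5′ to 3′ on the plus strand, from chr3:81036166-81036415 and chr9:6168236-6168485, and capitals mark a TATA box (TATAAA) or a GC box (GGGCGG), searched on both strands.
Pdgfc: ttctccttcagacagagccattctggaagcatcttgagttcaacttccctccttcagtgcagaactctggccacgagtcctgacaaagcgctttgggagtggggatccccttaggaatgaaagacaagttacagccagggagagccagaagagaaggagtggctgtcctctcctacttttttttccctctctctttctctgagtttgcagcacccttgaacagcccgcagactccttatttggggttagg
Pdgfd: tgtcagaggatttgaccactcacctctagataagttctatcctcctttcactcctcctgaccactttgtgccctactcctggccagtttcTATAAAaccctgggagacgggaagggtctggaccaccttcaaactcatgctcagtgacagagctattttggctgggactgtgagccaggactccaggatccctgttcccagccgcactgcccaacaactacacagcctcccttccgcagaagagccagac
The Pdgfd window held 1 TATAAA, which starts at position -160 from the RefSeq start, and 0 GC boxes. The Pdgfc window held 0 of either. Of 32851 promoter windows of the same length, 12.4% held TATAAA and 32.7% held GGGCGG. Neither window held the AP-1 motif TGANTCA, which 6.75% of all windows held. The GC content was 50.8% for Pdgfc and 53.6% for Pdgfd, against a median of 52.4% over all windows. A match describes letters in the window and not a bound site.

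The genes lie on 6 chromosomes of the GRCm38 (mm10) assembly in the GENCODE M21 annotation. Pdgfa (chromosome 5, 138976014 to 138997370, minus strand) and Pdgfra (chromosome 5, 75152292 to 75198215, plus strand) share a chromosome. Pdgfb lies on chromosome 15 (79995874 to 80014977, minus strand), Pdgfc on chromosome 3 (81036416 to 81214040, plus strand) and Pdgfd on chromosome 9 (6168584 to 6378850, plus strand). Pdgfrb lies on chromosome 18 (61045150 to 61085061, plus strand) and Pdgfrl on chromosome 8 (40926212 to 40990785, plus strand). Pdgfa, Pdgfb, Pdgfc, Pdgfd and Pdgfra overlap annotated genes on the opposite strand (6330403L08Rik, Gm41361, Gm16000, Ddi1, and Gm42802 with Gm42803). The sources used here do not say whether counting used strand. These overlaps are of whole gene spans, and overlap of exons was not checked. Where exons overlap and counting ignored strand, reads from a neighbour cannot be told apart from those of the member. On the same strand, Mir7213 overlaps Pdgfb and Mir7025 overlaps Pdgfra.

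The comparison asked how ligand and receptor transcripts of this family differ between dermal and inguinal adipocyte preparations. Pdgfd, Pdgfb and Pdgfrb were higher in inguinal libraries, by 3.41-fold, 2.37-fold and 1.88-fold on the log2(CPM + 0.5) scale, and no member passed the test in the dermal direction. Pdgfa, Pdgfc, Pdgfra and Pdgfrl did not pass the test. Thus 3 of 7 members passed in the inguinal direction, where 8.80% of all tested genes did, and 0 passed in the dermal direction, where 7.56% did. CPM are read counts that the authors scaled by library size and a further factor. The test was limma on log2(CPM + 0.5), two-sided, with Benjamini-Hochberg adjustment over the 12797 genes and a threshold of 0.05. Log2 fold changes are dermal over inguinal, so negative values are higher in inguinal libraries. The values of 5 members did not overlap between depots (3 higher in inguinal, 2 in dermal). Of all tested genes, 61.8% showed no overlap, 30.1% with higher inguinal and 31.6% with higher dermal values. The median log2 fold change of the 7 members was -0.13, against 0.02 over all tested genes.

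**Figure D1:**
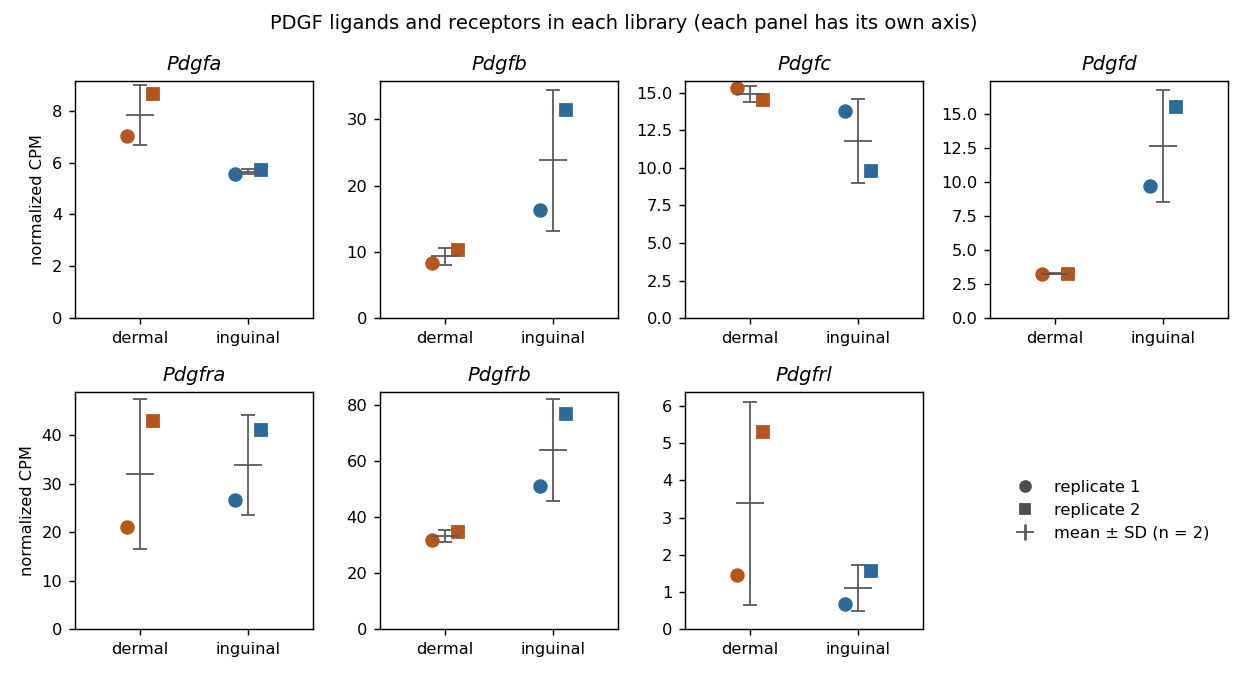
Normalized CPM (vertical axes, starting at 0 and scaled separately) of the 7 genes in the dermal and inguinal libraries; circles are replicate 1, squares replicate 2, and bars the mean ± SD (n = 2). Pdgfb, Pdgfd and Pdgfrb lie higher in both inguinal libraries, and Pdgfra and Pdgfrl overlap between depots.

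The libraries held 10127125 to 12730013 reads assigned to genes, and 1 read was worth 0.0844 to 0.0969 CPM. The members were covered by 8 to 792 reads per library, so counting error is largest for Pdgfrl. Ratios of summed reads below carry exact 95% intervals that cover counting error only. The adipocyte transcripts Cfd, Fabp4 and Adipoq were abundant in all 4 libraries, at 2965 CPM or more. Of 10 mature adipocyte markers, 2 were higher in dermal libraries and 8 did not pass, with a median log2 fold change of 0.21. Markers of other cells were also present. All 15 endothelial markers were higher in inguinal libraries, with dermal sums of 503 and 557 CPM and inguinal sums of 1786 and 2751 CPM. Of 12 tested pericyte and smooth muscle markers, 7 had higher inguinal and 2 higher dermal values. Of 16 fibroblast and progenitor markers, 3 were higher in dermal libraries and 13 did not pass. Of 13 tested macrophage markers, 10 were higher in dermal libraries. None of the markers in the table was at 0 in all libraries. In bulk RNA, fewer cells of a type and less RNA per cell cannot be told apart.

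Pdgfd encodes the CUB-domain ligand of PDGF receptor beta and showed the largest difference of the family. It had dermal values of 3.28 and 3.23 CPM and inguinal values of 9.71 and 15.5 CPM. Both inguinal values were higher than both dermal values, and the 2 dermal libraries were nearly equal. The log2 fold change was -1.77 (SE 0.27, adjusted p = 0.00937), with a 95% interval of -2.42 to -1.12. The reads numbered 70 in dermal and 275 in inguinal libraries, an inguinal over dermal ratio of 3.82 (counting interval 2.93 to 5.04). The Pdgfd call held under all 14 alternative settings, with adjusted p values up to 0.0217. Set against the summed endothelial markers, which also rose in inguinal libraries, Pdgfd stood at 6.52 and 5.80 CPM per 1000 marker CPM in dermal and 5.44 and 5.64 in inguinal libraries. Both dermal values lay slightly above both inguinal values on that basis. Per 1000 CPM of summed pericyte and smooth muscle markers, Pdgfd stood at 4.43 and 4.49 for dermal and at 13.1 and 18.8 for inguinal libraries, again without overlap and with the inguinal values higher. The endothelial margin was narrow and rests on 36 and 34 dermal Pdgfd reads. The list members Mcam and Cspg4 supplied 79.2% and 78.9% of the pericyte and smooth muscle sum in dermal and 54.6% and 40.7% in inguinal libraries. Without them the list summed to 154 and 152 dermal and 336 and 489 inguinal CPM. Relative to these smaller sums, Pdgfd was still higher in both inguinal libraries, but by less. The part of either cell type in the Pdgfd difference was not tested.

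Pdgfb encodes the B chain, the ligand that binds both receptors and that endothelial cells release toward pericytes. It had dermal values of 8.37 and 10.2 CPM and inguinal values of 16.3 and 31.3 CPM. The depots did not overlap, but the inguinal libraries differed 1.92-fold from each other. The log2 fold change was -1.24 (SE 0.31, adjusted p = 0.0435), with a 95% interval of -2.0 to -0.49. The read ratio, inguinal over dermal, was 2.51 (counting interval 2.12 to 2.97). Per 1000 CPM of summed endothelial markers, Pdgfb stood at 16.7 and 18.4 for dermal and at 9.12 and 11.4 for inguinal libraries, so on this basis both dermal values were the higher ones. The part of endothelial cells in the Pdgfb difference was not tested. It no longer passed without dermal replicate 1 (log2 fold change -1.11, adjusted p = 0.124) or dermal replicate 2 (-1.38, 0.0584), without a filter on low values (adjusted p = 0.0701), without the intensity trend (0.0723) and with scaling by library total alone (0.0718), and the estimate ranged from -1.70 (inguinal replicate 1 left out) to -0.78 (inguinal replicate 2 left out).

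Pdgfa, the A-chain ligand of receptor alpha, went the other way without passing the test. It had dermal values of 7.01 and 8.63 CPM and inguinal values of 5.57 and 5.72 CPM. The values did not overlap, and the difference was small (log2 fold change 0.43, SE 0.21, adjusted p = 0.218, 95% interval -0.08 to 0.94). Pdgfc, the latent ligand that acts mainly through receptor alpha, had dermal values of 15.3 and 14.5 CPM and inguinal values of 13.8 and 9.79 CPM. Its dermal values were the higher ones by a narrow margin (log2 fold change 0.35, SE 0.21, adjusted p = 0.311, 95% interval -0.17 to 0.86). The intervals of both genes include 0 and differences of up to 0.94 and 0.86 in the dermal direction.

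Pdgfrb, the receptor of the B and D chains, had the highest mean level per kilobase of the family and was higher in inguinal libraries. It had dermal values of 31.7 and 34.6 CPM and inguinal values of 50.9 and 76.8 CPM, without overlap. The log2 fold change was -0.91 (SE 0.21, adjusted p = 0.0337), with a 95% interval of -1.41 to -0.40. It no longer passed without dermal replicate 1 (-0.84, adjusted p = 0.119) or dermal replicate 2 (-0.97, 0.0746), without a filter (0.0525), without the intensity trend (0.0683) and with scaling by library total alone (0.0687). Without inguinal replicate 2 the estimate was -0.61 (adjusted p = 0.0320), and without inguinal replicate 1 it was -1.20.

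Most of the mural cell markers that passed were higher in inguinal libraries, as Pdgfrb was, but the summed level of the list overlapped between depots. The pericyte and smooth muscle markers summed to 740 and 719 dermal CPM and to 740 and 824 inguinal CPM. Of these sums, Mcam, a cell adhesion molecule, and Cspg4, the NG2 proteoglycan, supplied 79.2% and 78.9% in dermal and 54.6% and 40.7% in inguinal libraries. Those 2 genes were the list members higher in dermal libraries, with log2 fold changes of 0.53 and 0.94. The Mcam call (adjusted p = 0.0444) was lost under edgeR (0.0510), without a filter (0.0666), without the intensity trend (0.0907), and without dermal replicate 1, dermal replicate 2 or inguinal replicate 2 (0.249, 0.227 and 0.0889). Per 1000 CPM of the whole list, Pdgfrb stood at 42.8 and 48.2 for dermal and at 68.8 and 93.2 for inguinal libraries, without overlap. That order rests on Mcam and Cspg4. Without them the list summed to 154 and 152 dermal CPM and to 336 and 489 inguinal CPM. Relative to these smaller sums, Pdgfrb was higher in both dermal libraries. The part of mural cells in the Pdgfrb difference was not tested.

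Pdgfra, the receptor of fibroblasts and adipocyte progenitors, did not separate the depots. It had dermal values of 21.1 and 43.0 CPM and inguinal values of 26.6 and 41.2 CPM. Replicate 2 was higher than replicate 1 in both depots, 2.04-fold in dermal and 1.55-fold in inguinal libraries, and the depots overlapped. The log2 fold change was -0.13 (SE 0.36, adjusted p = 0.832), and its 95% interval of -0.99 to 0.73 leaves room for changes of either sign. The estimate turned positive without dermal replicate 1 (0.37) or inguinal replicate 2 (0.18). The summed fibroblast and progenitor markers were 6828 and 14635 dermal CPM and 4240 and 7170 inguinal CPM, likewise higher in replicate 2 of both depots. Per 1000 CPM of these markers, Pdgfra stood at 3.09 and 2.94 for dermal and at 6.27 and 5.75 for inguinal libraries. Collagen transcripts dominate that sum, and Col3a1 alone made up 55.9% to 64.6% of it. The part of fibroblasts in the Pdgfra values was not tested.

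Pdgfrl encodes a secreted protein that resembles the receptors' extracellular domain and lacks a kinase. It had dermal values of 1.46 and 5.31 CPM and inguinal values of 0.676 and 1.55 CPM, from 16, 56, 8 and 16 reads. Dermal replicate 2 stood above the other 3 libraries, and dermal replicate 1 lay below inguinal replicate 2. The log2 fold change was 1.12 (SE 0.56, adjusted p = 0.223), with a 95% interval of -0.24 to 2.47. The summed reads gave a dermal over inguinal ratio of 3.09 (counting interval 1.92 to 5.13), a range that leaves out the spread between libraries. One library decided the value: without dermal replicate 2 the log2 fold change was 0.33 (adjusted p = 0.783), and without dermal replicate 1 it was 1.90 and passed (adjusted p = 0.0445).

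**Figure D2:**
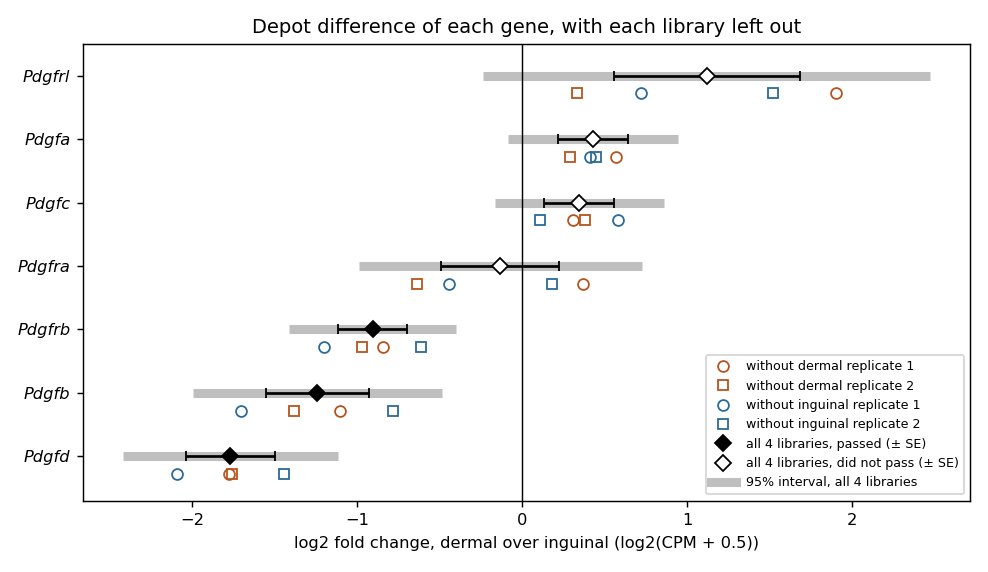
Log2 fold change, dermal over inguinal (horizontal axis), of each gene, with SE (black bars) and 95% interval (grey); filled diamonds passed the test, and coloured open symbols show the estimate without each library. Pdgfd, Pdgfb and Pdgfrb stay below 0 whichever library is left out, Pdgfra changes sign, and Pdgfrl ranges from 0.33 to 1.90.

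Levels of different genes were compared per kilobase of annotated exon. In dermal libraries Pdgfrb led at 6.05 CPM per kb, followed by Pdgfra (3.20), Pdgfc (2.93), Pdgfa (2.51), Pdgfb (2.24), Pdgfrl (1.08) and Pdgfd (1.03). The dermal range of Pdgfra, 2.11 to 4.29 CPM per kb, covered the means of Pdgfc, Pdgfa and Pdgfb, and Pdgfrl and Pdgfd overlapped as well. In inguinal libraries Pdgfrb again led at 11.7 CPM per kb, followed by Pdgfb (5.72), Pdgfd (4.0), Pdgfra (3.38), Pdgfc (2.31), Pdgfa (1.81) and Pdgfrl (0.356). There the values of Pdgfb, Pdgfd and Pdgfra overlapped, as did those of Pdgfra and Pdgfc. Dividing by the longest transcript in place of all exons put Pdgfra (4.96) above Pdgfd (4.03) in inguinal libraries and left the dermal order as given. The authors' gene models may differ from these lengths.

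Ratios within a library do not depend on how that library was scaled. The ratio of Pdgfc to Pdgfd was 4.67 and 4.5 in dermal and 1.42 and 0.631 in inguinal libraries, so Pdgfc reads outnumbered Pdgfd reads in 3 of 4 libraries. Per kilobase of all annotated exons, Pdgfd stood above Pdgfc in inguinal replicate 1 too (3.08 against 2.70 CPM per kb). The order in that library depends on the length used. The ratio of Pdgfa to Pdgfb was 0.837 and 0.843 in dermal and 0.342 and 0.183 in inguinal libraries. Both ratios were higher in both dermal libraries, by 2.28 and 1.75 on the log2 scale. Pdgfra relative to Pdgfrb was 0.667 and 1.24 in dermal and 0.522 and 0.537 in inguinal libraries, with both dermal values higher. Pdgfb relative to its receptor Pdgfrb was 0.264 and 0.296 in dermal and 0.320 and 0.408 in inguinal libraries, with both inguinal values higher. Pdgfa relative to Pdgfra, at 0.332 and 0.201 in dermal and 0.21 and 0.139 in inguinal libraries, overlapped between the depots. With 2 libraries against 2, the exact two-sided permutation test cannot go below p = 0.333, which 4 of the 5 ratios reached (p = 0.417 after adjustment over the 5), and the fifth gave p = 0.667. The values per library are therefore the result.

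**Figure D3:**
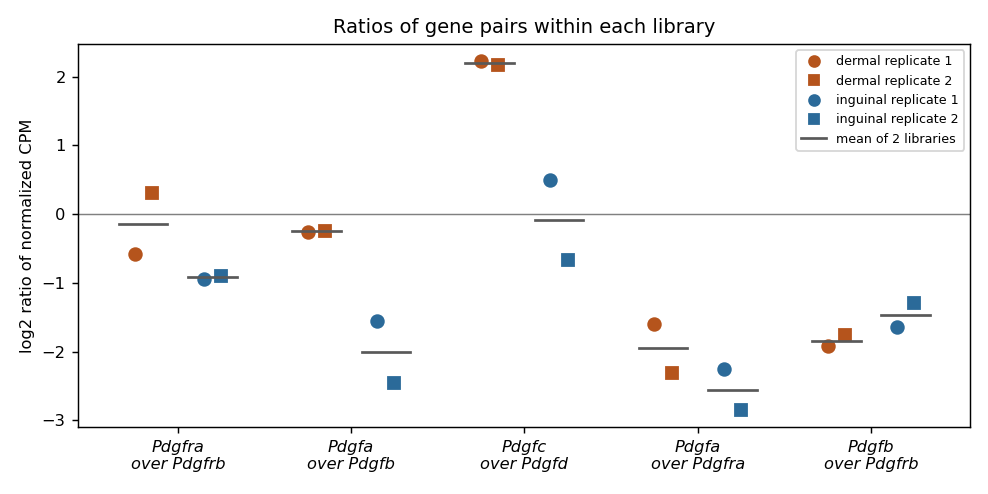
Log2 ratio of the normalized CPM of 2 genes within each library (vertical axis) for 5 gene pairs; circles are replicate 1, squares replicate 2, and lines the mean of 2 libraries. Pdgfc over Pdgfd and Pdgfa over Pdgfb lie higher in both dermal libraries, and Pdgfa over Pdgfra overlaps between depots.

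The genes with the most similar profiles were found by the distance between centred log2(CPM + 0.5) values over the 4 libraries, among 8721 other genes with a mean of at least 10 CPM. For Pdgfrb the nearest was Kcnj8, at a distance of 0.02 on the log2 scale, a potassium channel gene that also stands on the pericyte list, followed by Myh9 and Magi1. For Pdgfb they were Ahr, Prss23 and Map1b, for Pdgfd Pik3r3, Mmrn2 and Dysf, and for Pdgfra Amigo2, Ndrg1 and Top2a. Pdgfa was nearest to Irgq, Ikbip and Oxct1, and Pdgfc to Ctsb, Scly and Slc48a1. The number of genes this close differed between members: 493 lay within 0.25 of Pdgfa and 464 of Pdgfc, against 79 for Pdgfrb, 31 for Pdgfd, 13 for Pdgfb and 8 for Pdgfra. For Pdgfrl, whose nearest genes were Thbs3, Ppp1r3c and Cpz, the number was 3.

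Around the members, 92 further genes of PDGF processing, signalling and response were listed, of which 88 were tested. Of these, 26 (29.5%) had higher inguinal and 6 (6.82%) higher dermal values, and 56 did not pass, where 8.80% and 7.56% of all tested genes passed. The median log2 fold change was -0.16, against 0.02 over all tested genes. The lists were chosen with earlier results of these data known, so these shares describe the lists and do not test them. Without dermal replicate 1 the inguinal count fell to 17. Most of the inguinal calls belonged to the genes that PDGF induces in cultured fibroblasts and to the brakes on receptor signalling.

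Proteases that process the ligands split between the depots, with 2 of 6 tested higher in inguinal and 1 in dermal libraries. Plat, tissue plasminogen activator, which cleaves the CUB domain of PDGF-C, had dermal values of 4.92 and 7.59 CPM and inguinal values of 14.8 and 24.4 CPM (log2 fold change -1.56, adjusted p = 0.0213). Plau, the urokinase that can activate PDGF-D, had dermal values of 37.3 and 41.2 CPM and inguinal values of 17.3 and 22.8 CPM (0.96, adjusted p = 0.0179). The activators of the 2 latent ligands thus differed in opposite directions. Plau was higher in the depot where Pdgfd was lower, whereas Pdgfc, whose product Plat cleaves, did not pass the test in either direction. Pcsk6, a proprotein convertase, was higher in inguinal libraries (-0.99, adjusted p = 0.0107). The convertases Furin (0.37, adjusted p = 0.102) and Pcsk5 (0.18, 0.548) did not pass, and the matriptase gene St14 was below the filter. The call of Pcsk6 was lost without dermal replicate 2 (adjusted p = 0.0547), that of Plat without dermal replicate 1 (0.0603), and that of Plau without dermal replicate 1 or 2 (0.0550 and 0.0891).

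Among 7 tested inhibitors, binding proteins and co-receptors, 2 were higher in each depot. Lrp1, an endocytic co-receptor of PDGF receptor beta, had dermal values of 1116 and 1085 CPM and inguinal values of 404 and 455 CPM (log2 fold change 1.36, SE 0.14, adjusted p = 0.00311). Lrp1 therefore stood higher in the depot where Pdgfrb was lower, but which cells supplied either transcript was not tested. Cspg4 was also higher in dermal libraries (0.94, adjusted p = 0.0174), which did not pass once dermal replicate 1 was left out (0.0697). The semaphorin and growth factor co-receptor Nrp1 was higher in inguinal libraries (-0.63, adjusted p = 0.0230), a call lost without either dermal library (0.155 and 0.156), without the intensity trend (0.0557), with library totals alone (0.0504) and with quantile normalization (0.0764). Sparc, a matrix protein that binds PDGF, did not pass (0.29, adjusted p = 0.358), nor did the caveolar gene Cav1 (0.26, 0.338).

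Of 25 adaptors and effectors at the receptor, inguinal libraries were higher for 4 and dermal libraries for 1, and 20 did not pass. Pik3r2, a regulatory subunit of phosphoinositide 3-kinase, was higher in dermal adipocytes (log2 fold change 1.19, adjusted p = 0.00677), whereas its abundant paralogue Pik3r1 stood at 1182 ± 32.2 dermal CPM and 1142 ± 31.7 inguinal CPM (SD, n = 2, limma adjusted p = 0.850). The Src-family kinase genes Yes1 (-1.23, adjusted p = 0.0120) and Fyn (-1.07, 0.0352) and the transcription factor gene Stat3 (-0.59, 0.0236) were higher in inguinal libraries. Fyn did not pass with dermal replicate 1 (adjusted p = 0.146) or inguinal replicate 2 (0.0556) left out, without a filter (0.0588), without the intensity trend (0.0583) and with library totals alone (0.0647). The Stat3 call was lost without dermal replicate 1 or 2 (0.158 and 0.173), without the intensity trend (0.0606), with library totals alone (0.0527) and with quantile normalization (0.0807). In the cascade of RAS, ERK and AKT kinases 1 of 14 genes passed, as higher in inguinal libraries. Akt2, a kinase of insulin signalling, did not pass (0.22, adjusted p = 0.297).

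Genes that damp receptor signalling were higher in inguinal libraries in 5 of 14 cases and in dermal libraries in 1, with a median log2 fold change of -0.32. Socs3, a feedback inhibitor of cytokine receptors, had dermal values of 83.3 and 121 CPM and inguinal values of 442 and 482 CPM (log2 fold change -2.19, SE 0.19, adjusted p = 0.00223). The phosphatase gene Ptpn2 had dermal values of 30.9 and 31.6 CPM and inguinal values of 70.6 and 72.8 CPM (-1.19, SE 0.13, adjusted p = 0.00345). Ptprj, a receptor phosphatase that acts on PDGF receptor beta, went the other way, with dermal values of 58.3 and 59.5 CPM and inguinal values of 26.4 and 25.3 CPM (1.17, SE 0.13, adjusted p = 0.00368). Ptpn12 was higher in inguinal libraries (-0.89, adjusted p = 0.0132), which did not pass once dermal replicate 1 was left out (0.0661).

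Of 16 genes that PDGF induces in cultured fibroblasts, 10 were higher in inguinal libraries and 0 in dermal, with a median log2 fold change of -1.44 and 15 negative estimates. Fosb, an AP-1 subunit, had dermal values of 94.7 and 119 CPM and inguinal values of 520 and 606 CPM (log2 fold change -2.40, SE 0.16, adjusted p = 0.00156). Egr2 had dermal values of 12.8 and 18.0 CPM and inguinal values of 98.0 and 91.1 CPM (-2.60, SE 0.19, adjusted p = 0.00166). The AP-1 subunit genes Fosl1 (-2.72, adjusted p = 0.00277) and Fos (-1.66, 0.00348) and the chemokine gene Cxcl1 (-2.01, 0.00297) were higher in inguinal libraries too. Jun, with dermal values of 375 and 638 CPM and inguinal values of 867 and 917 CPM, did not pass (-0.87, adjusted p = 0.0651), but passed with DESeq2 (0.00886), without dermal replicate 2 (0.0164) and without inguinal replicate 1 (0.0389). These genes also respond to many other stimuli, and the part of PDGF signalling in their levels was not tested.

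**Figure D4:**
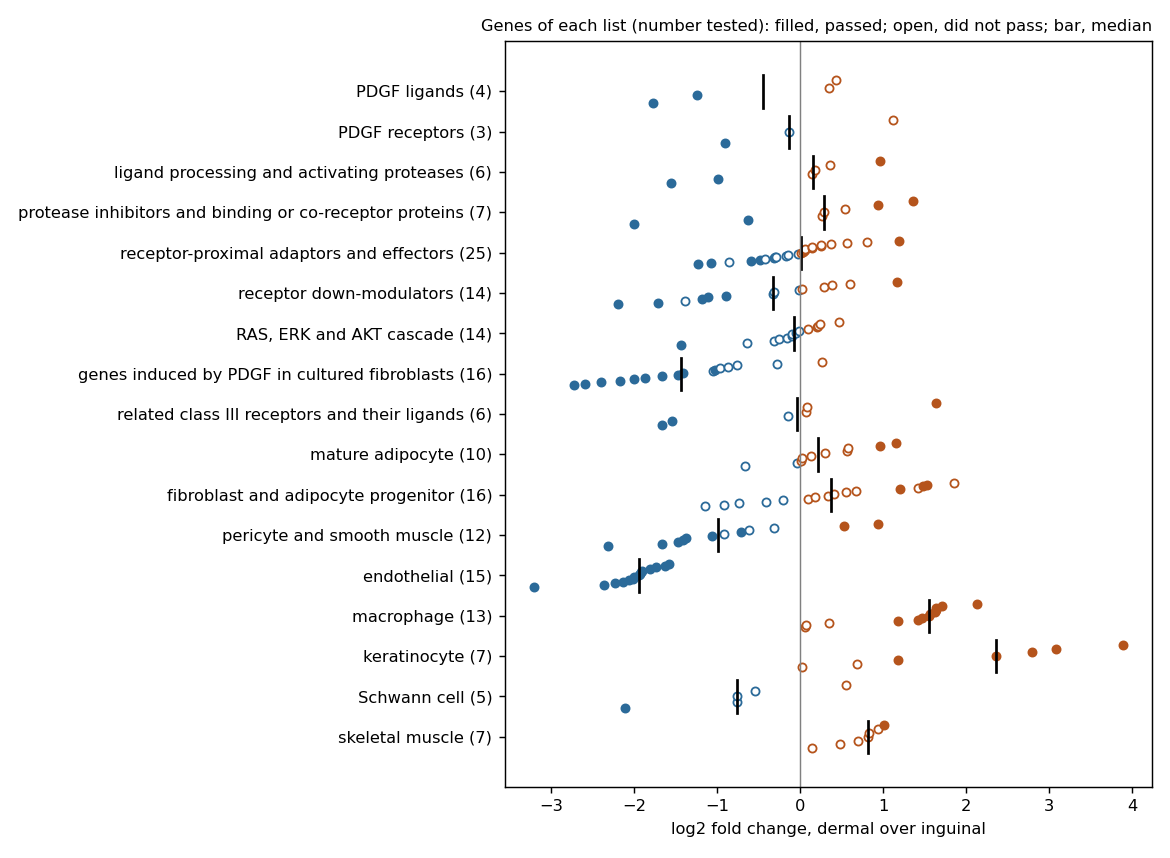
Log2 fold change, dermal over inguinal (horizontal axis), of the tested genes of each list (number tested in brackets) except the platelet and megakaryocyte list. Filled points passed the test, open points did not, and bars mark the median. Genes induced by PDGF in cultured fibroblasts and the endothelial markers lie mostly or entirely below 0, at medians of -1.44 and -1.94, and macrophage markers above 0, at 1.55.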

How the data were processed

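Gene-level values of 4 RNA-seq libraries were used, in normalized CPM. The deposited signal values are read counts that the authors scaled by library size and a further factor, per the file headers and the values, since columns do not sum to 1 fixed total. Per the submitters' processing notes the tools include TopHat2 2.0.12, Picard 1.127, featureCounts (Subread 1.4.6) and edgeR, with the mm10 genome; roles and settings are not given in the sources used here. In every column 100% of values were whole multiples of 1 read within 0.001, which gave the reads per gene. Columns were matched to samples by title.

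Genes with at least 1 CPM in at least 2 libraries were tested on the log2(CPM + 0.5) scale with limma 3.58.1 in R 4.3.3, using an intensity trend, no covariate and Benjamini-Hochberg adjustment over all tested genes. This scale understates changes of low genes. Alternatives were edgeR 4.0.16 and DESeq2 1.42.0 on the recovered reads, pseudocounts of 0.1 and 1, other filters (none, 5 CPM), no trend, library totals alone, quantile normalization, a replicate block, and each library left out. Lengths and positions came from GENCODE M21, and promoters from RefSeq. The members and lists were chosen with earlier results of these data known. Besides the members, the text names for each pathway list up to 4 genes with the smallest adjusted p among those passing and the 2 with the highest mean, for marker lists up to 3 by mean level, and the 3 nearest profiles of each member. St14 was named as a list gene below the filter. Some genes that this rule selects are not reported here. Adgre1 and Krt1, on the marker lists, are not analysed here. In the marker lists not described in the text, dermal libraries had the higher values for 5 of 7 keratinocyte and 1 of 7 skeletal muscle genes, and inguinal libraries for 1 of 5 Schwann cell genes.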

Additional observations from a re-analysis of the deposited data

How the results depend on the processing

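Pdgfd passed under all 14 alternatives. Pdgfb and Pdgfrb each passed under 9 and missed the threshold under 5, keeping their sign: without a filter (-1.24 and -0.91) and without the intensity trend (-1.24 and -0.91), with library totals alone (-1.16 and -0.82) and without either dermal library. With libraries left out in turn, Pdgfb ranged from -1.70 to -0.78, Pdgfrb from -1.20 to -0.61, Pdgfrl from 0.33 to 1.90 and Pdgfra from -0.64 to 0.37, where its sign reversed without dermal replicate 1 (0.37) and inguinal replicate 2 (0.18). Pdgfrl could not be tested with a filter at 5 CPM. Where 1 library is left, it is assumed to vary like the others. The 5 ratios kept their sign throughout. Among genes named besides the members, estimates that did not pass reversed for Pcsk5 without inguinal replicate 1 (-0.041, range -0.041 to 0.41 with libraries left out), Csf1 without dermal replicate 2 (-0.012, range -0.012 to 0.18), and Cfd with library totals alone (0.047), quantile normalization (0.15), without dermal replicate 2 (0.29) and inguinal replicate 1 (0.16, range -0.36 to 0.29). The 26 pathway genes higher in inguinal libraries became 17 to 32 with libraries left out. Over all genes, 968 and 1126 passed as higher in dermal and inguinal libraries, against 339 to 1212 and 568 to 1470 with libraries left out; the fewest came without dermal replicate 2 (339 and 698) and dermal replicate 1 (455 and 568).

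Same-numbered libraries of the 2 depots deviated together (correlation 0.46 over 12797 genes), but no label says that the numbers pair them. With the replicate number as a block, Pdgfrl passed (1.12, adjusted p = 0.00935), Jun (adjusted p = 0.000508), Furin (0.0211) and Col3a1 (0.0139) passed too, the other members kept their calls, 12 pathway genes were higher in dermal libraries in place of 6, and 2342 and 2384 genes passed in the dermal and inguinal directions. The cause of these shifts was not tested. Depth limits Pdgfrl most, at 8 to 56 reads per library.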

Other observations

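The PDGF receptors belong to the class III receptor tyrosine kinases, with Kit, Csf1r and Flt3 as relatives. Of 6 tested relatives and their ligands, 2 passed as higher in inguinal and 1 as higher in dermal libraries. Csf1r, the macrophage colony-stimulating factor receptor, had dermal values of 172 and 177 CPM and inguinal values of 54.5 and 56.6 CPM (log2 fold change 1.64, SE 0.12, limma adjusted p = 0.00166). The macrophage marker list, which includes Csf1r, summed to 1767 and 1665 dermal CPM and to 640 and 600.3 inguinal CPM. The ligand gene Csf1 stood at 89.5 ± 8.33 dermal CPM and 84.2 ± 1.64 inguinal CPM (SD, n = 2) and did not pass (limma adjusted p = 0.705). Kit had dermal values of 4.28 and 10.6 CPM and inguinal values of 27.1 and 18.9 CPM (-1.67, limma adjusted p = 0.0389), or -1.06 without dermal replicate 1, where it did not pass (0.0753), and -2.28 without dermal replicate 2. The Kit call was also lost without a filter (0.0645) and without the intensity trend (0.0694). Its ligand gene Kitl had dermal values of 36.2 and 50.4 CPM and inguinal values of 97.1 and 162 CPM (-1.54, limma adjusted p = 0.0150). Receptor and ligand of the Kit pair were thus both higher in inguinal libraries.

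Platelets, which store PDGF, were followed through 9 marker genes, of which 3 passed the filter. Pf4, a platelet chemokine that macrophages also express, had dermal values of 22.8 and 15.9 CPM and inguinal values of 4.48 and 4.65 CPM (1.95, limma adjusted p = 0.00423). The platelet glycoprotein genes Gp1bb, at 0.910 to 2.45 CPM, and Itga2b, at 1.00 to 1.99 CPM, did not pass.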
